A study of Caenorhabditis elegans with 4 samples.

Results

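Autosomal tRNA genes of Caenorhabditis elegans were examined for recovery with K09A11.1, whose annotation names a BED-type domain, in late embryos. The genes were all those annotated as tRNA on the 5 autosomes, and numbered 336 of the 612 nuclear tRNA genes and of the 634 tRNA genes when the mitochondrial ones are counted. Each gene was taken with 200 bp on either side, and its value in a list was the highest signal among the regions whose summit lay inside that window. Chromatin immunoprecipitation with sequencing (ChIP-seq) was done with an antibody to GFP on whole hermaphrodites of strain OP372, genotype unc-119(tm4063) III; wgIs372, a transgenic line that expresses K09A11.1 with GFP and FLAG at its C terminus. All 4 libraries belong to this 1 group, with 2 biological replicates of 2 technical libraries each, so no groups were compared. Whole animals were used, so the cells in which a gene was recovered cannot be told apart, and the labels do not name the promoter that drives the transgene. The lists carry no read counts, so sequencing depth could not be read from them.

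Genes for tRNA are transcribed by RNA polymerase III from promoter elements that lie within the transcribed sequence. The A box near the 5′ end and the B box in the T arm are bound by the factor TFIIIC, which places TFIIIB just upstream of the gene. TFIIIB then recruits the polymerase, and a run of T after the gene ends transcription. Nematode genomes carry many tRNA genes, often as identical copies spread over several chromosomes.

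The following 6 genes are shown because each had a listed region and because together they show how the internal elements recur in tRNAs that differ elsewhere. All are given 5′ to 3′ on the gene's own strand from the WBcel235 assembly (ce11). The first capitals mark the match to the A box (letters TNGNNNA followed at once by NNNG), and the second the match to the core of the B box (letters GTTCNANNC).
F29C4.t1 (tRNA-Arg, chrIV:143982-144054, plus strand): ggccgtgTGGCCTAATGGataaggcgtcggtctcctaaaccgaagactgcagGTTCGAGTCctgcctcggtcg
K06A4.t1 (tRNA-Ala, chrV:9503562-9503633, plus strand): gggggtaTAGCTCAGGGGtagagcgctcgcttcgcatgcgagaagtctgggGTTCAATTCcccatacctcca
F57F5.t1 (tRNA-Ile with an intron, chrV:12002176-12002260, plus strand): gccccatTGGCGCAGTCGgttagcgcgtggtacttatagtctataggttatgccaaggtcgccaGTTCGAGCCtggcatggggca
Y39A1A.t1 (tRNA-Thr, chrIII:10624742-10624813, minus strand): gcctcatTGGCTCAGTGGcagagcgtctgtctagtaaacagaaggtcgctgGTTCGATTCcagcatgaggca
Y4C6B.t1 (tRNA-Gln, chrIV:5334712-5334783, plus strand): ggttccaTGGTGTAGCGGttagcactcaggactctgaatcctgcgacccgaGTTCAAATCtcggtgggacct
W03C9.t1 (tRNA-Val, chrII:11959375-11959447, plus strand): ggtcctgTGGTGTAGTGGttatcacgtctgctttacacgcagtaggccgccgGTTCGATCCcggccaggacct

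The 50 bases before 5 of the genes of highest signal are shown next, because the pooled summit of each lay in them and not in the gene. Replicate summits could differ. The replicate 1 summit lay inside the gene at F35H8.t1 (18 bp from its first base) and F29C4.t1 (5 bp). At T21B4.t1 the replicate 2 summit lay inside (1 bp). The 5 capitals are centred on the pooled summit, and the last base printed is the one before the gene.
F35H8.t1 (tRNA-Arg, chrII:9566191-9566240, plus strand): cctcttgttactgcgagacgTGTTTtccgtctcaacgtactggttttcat
T21B4.t1 (tRNA-Ile, chrII:12494691-12494740, plus strand): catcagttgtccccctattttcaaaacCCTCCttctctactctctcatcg
F42A10.t1 (tRNA-Ser, chrIII:6158728-6158777, plus strand): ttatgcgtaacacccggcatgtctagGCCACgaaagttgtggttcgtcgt
F29C4.t1 (tRNA-Arg, chrIV:143932-143981, plus strand): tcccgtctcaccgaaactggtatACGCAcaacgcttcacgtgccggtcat
F56F3.t1 (tRNA-Arg, chrIII:4470959-4471008, minus strand): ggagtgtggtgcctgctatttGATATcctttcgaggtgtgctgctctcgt

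Of the 336 autosomal tRNA genes, 69 (20.5%) had a summit in the thresholded list, which the submitters kept by the irreproducible discovery rate, a measure of rank reproducibility between replicates. Windows of 472 bp laid end to end on the autosomes, the length of a tRNA gene of median length with its flanks, gave 0.292% in the same list. In the pooled list of 30000 ranked regions, 211 genes (62.8%) had a summit, against 13.8% of the end-to-end windows. In the replicate 1 list 201 genes (59.8%) had a summit, against a background of 13.8%, and in the replicate 2 list 183 genes (54.5%), against 13.6%. In both replicate lists 145 genes (43.2%) had a summit, against 3.23% of windows. The share of tRNA genes was thus above that of the windows in each of these lists. A further 56 genes were listed in replicate 1 and not in replicate 2, 38 were listed in replicate 2 and not in replicate 1, and 93 were in none of the pooled and replicate lists.

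Annotated tRNA pseudogenes, which resemble tRNA genes in sequence and are thought not to yield functional tRNA, were counted in the same way. Of 180 autosomal pseudogenes, 3 (1.67%) were in the thresholded list, 36 in the pooled list and 10 (5.56%) in both replicate lists. Windows of equal length at 25199 autosomal 5′ ends of protein-coding genes gave 1.04% in the thresholded list and 18.6% in the pooled list. Recovery was not particular to tRNA genes. Of 313 autosomal genes for snoRNA, the small nucleolar RNAs that guide the modification of other RNAs, 45 (14.4%) were in the thresholded list, 129 (41.2%) in the pooled list and 77 (24.6%) in both replicate lists. The 276 X-linked tRNA genes gave 64 (23.2%) in the thresholded list and 165 (59.8%) in the pooled list. The median signal of the thresholded genes was 60.7 on the X and 46.1 on the autosomes. These differences between classes of genes were not tested, since genes of 1 group of samples are not replicates.

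**Figure D1:**
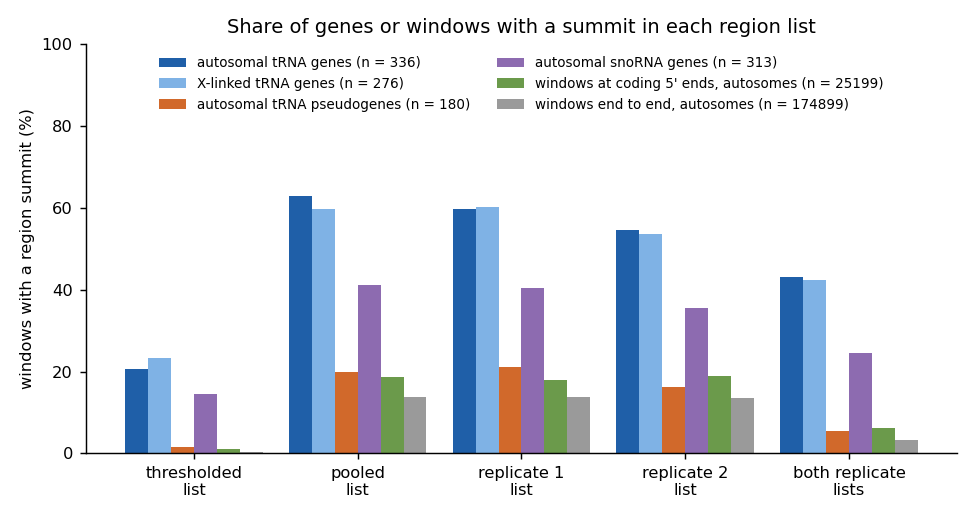
Share (%) of autosomal tRNA genes, X-linked tRNA genes, autosomal tRNA pseudogenes, autosomal snoRNA genes, windows at autosomal protein-coding 5′ ends and windows laid end to end on the autosomes that held a summit, for each region list; bars are percentages of the number of genes or windows in the key. The autosomal tRNA genes reach 62.8% in the pooled list, where the snoRNA genes reach 41.2% and the end-to-end windows 13.8%.

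The pooled signal of the 211 listed genes ran from 7.31 to 132 with a median of 23.2. The signal is the authors' own value for each region, and its scale was not stated. The median over all autosomal regions of the pooled list was 9.74 and the highest 216, so the tRNA genes lay mostly in the upper part of the list and did not include its top. The 100 regions of highest signal served 3 of the genes, the first 500 served 46, and the first 1000 served 90. Among the 69 thresholded genes the signal ran from 31.3 to 132 with a median of 46.1, against a median of 44.5 for all 513 autosomal peaks of the thresholded list. The lowest thresholded gene was F53F8.t1, a tRNA-Cys gene, at 31.3. The highest gene outside the threshold was F14B6.t2, a tRNA-Met gene, at 30.2, with 25.04 in replicate 1 and no region in replicate 2.

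The highest signal belonged to C37A2.t1, a tRNA-Cys gene (chrI:6781803-6781874, plus strand) within an intron of cye-1, which encodes cyclin E. Its signal was 132 in the pooled list, 106 in replicate 1 and 28.3 in replicate 2, and its pooled summit lay 23 bp upstream of the gene. The tRNA-Trp gene sup-5 (chrIII:8678497-8678568, minus strand), whose anticodon mutants suppress amber stop codons, followed with 94.97 in the pooled list, 65.8 in replicate 1 and 28.1 in replicate 2. It lies in an intron of fli-1, a homologue of flightless, which binds actin. T21B4.t1, a tRNA-Ile gene (chrII:12494741-12494814, plus strand) in an intron of the collagen gene col-85, had 90.5, 57.3 and 30.9 in the same order. In all 3 of these genes replicate 1 gave the higher value and both replicates held a region.

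Charging with arginine was the commonest identity among the next genes. F35H8.t1 (chrII:9566241-9566313) had a pooled signal of 79.2, with 47.9 in replicate 1 and 28.1 in replicate 2. F29C4.t1, in an intron of the collagen gene col-99, had 75.3, with 61.5 and 13.9. F47G6.t1 (chrI:1447138-1447210), in an intron of the myosin gene spe-15, had 72.4, with 54.6 and 15.8. These genes all carry tRNA-Arg, as does F56F3.t1 (chrIII:4470886-4470958), which had 63.9, with 42.6 and 22.8. The remaining genes among the 12 of highest signal carry other amino acids. The tRNA-Ser gene F42A10.t1 (chrIII:6158778-6158859) had 76.9, with 61.0 in replicate 1 and 11.2 in replicate 2. The tRNA-Ile gene F33G12.t1 (chrII:5032771-5032844) had 68.7, with 43.4 and 24.8. The tRNA-Lys gene B0350.t1 (chrIV:5967160-5967232) had 67.1, with 46.8 and 17.9. T23F1.t1, a tRNA-Lys gene, and T23F1.t2, a tRNA-Pro gene on the opposite strand, lie 67 bp apart on chromosome V and share 1 region with a signal of 63.8, with 47.4 and 11.9. The pooled and replicate 1 summits of that region lay inside T23F1.t2, and the replicate 2 summit lay between the genes.

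Each of the 20 amino acids had at least 1 autosomal tRNA gene in the thresholded list. The single tRNA gene for selenocysteine and the 2 genes of undetermined product had no region in any of the lists. Arginine had 6 of 17 genes in the thresholded list, with a median pooled signal of 43.3 over its 9 genes in the pooled list, and lysine had 9 of 28, with a median of 24.1 over 21. Cysteine had 3 of 6 genes in the thresholded list. Glycine, the amino acid with the most autosomal genes, had 2 of 35 (5.71%) in the thresholded list and 17 (48.6%) in the pooled list. Its highest gene, Y43D4A.t2, in an intron of Y43D4A.5, had 34.0 in the pooled list, 26.9 in replicate 1 and 8.49 in replicate 2. Genes for the same amino acid are often identical copies, so these counts are not of independent sequences.

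The highest genes of the amino acids not yet named reached pooled signals between 36.9 and 62.6. ZK507.t1 (tRNA-Asn), in an intron of dos-1, had 62.6, with 48.1 in replicate 1 and 13.2 in replicate 2. K06A4.t1 (tRNA-Ala), in an intron of swt-5, had 60.6, with 44.5 and 16.4. T15B12.t1 (tRNA-Met) had 60.5, with 40.9 and 19.98. These genes lie on chromosomes III and V, and replicate 1 was higher in each. W09G10.t3 (tRNA-Thr) had 59.2, with 37.3 and 21.1, but the summit lay 141 bp upstream of it, inside the neighbouring tRNA-Lys gene W09G10.t2, and the replicate summits lay there too. The highest tRNA-Thr gene with the summit inside it was W02G9.t2, with 51.6 in the pooled list, 42.1 in replicate 1 and 9.92 in replicate 2. T22F7.t1 (tRNA-Tyr), a gene with an intron of its own, had 57.1, with 37.8 and 18.96. Y22D7AL.t4 (tRNA-Glu) shares its region with the tRNA-Met gene Y22D7AL.t3, and the region had 54.1, with 32.3 and 23.7. A region at 2 genes is counted for both. Y39B6A.t9 (tRNA-Phe) had 51.3, with 33.1 and 12.2. Y4C6B.t1 (tRNA-Gln) had 46.3, with 27.3 and 17.7. C04A2.t1 (tRNA-Leu) had 46.1, with 31.6 and 16.3. Y4C6B.t1 and C04A2.t1 lie close together, at ranks 341 and 343 of the pooled list, and the data give no error with which to order them. F28F8.t3 (tRNA-Asp) had 45.7, with 33.1 and 12.5. Y7A9D.t3 (tRNA-Val) had 42.05, with 34.7 and 13.0. W09G10.t1 (tRNA-His) had 36.9, with 31.8 and 6.89. Replicate 2 was the lower replicate at every gene named in this paragraph.

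**Figure D2:**
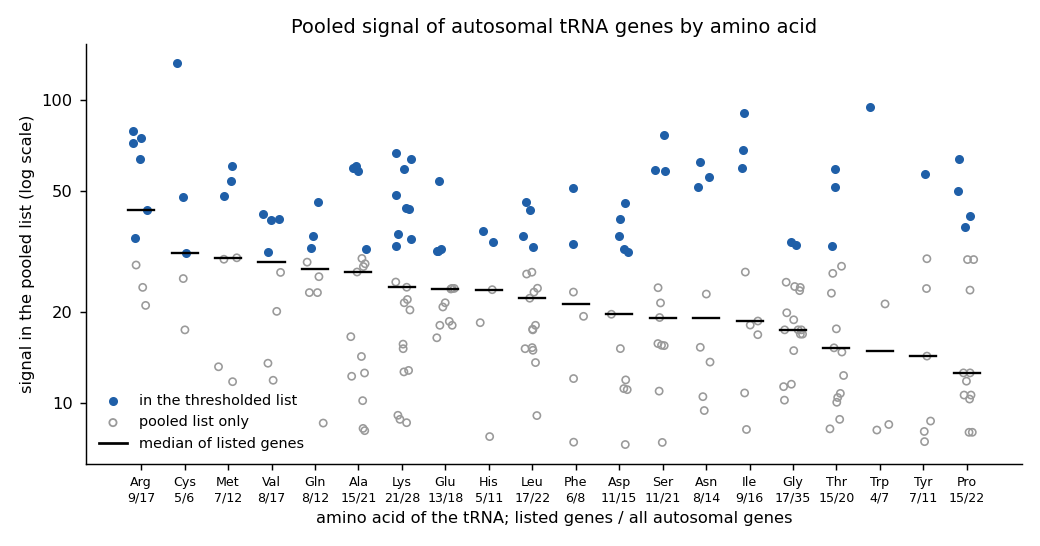
Signal in the pooled list (log scale) of the autosomal tRNA genes with a pooled region, by amino acid; filled points are in the thresholded list, open points are in the pooled list alone, bars are medians of the listed genes, and the axis gives listed genes over all autosomal genes. Every amino acid has at least 1 filled point, and arginine has the highest median, 43.3.

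The 336 genes held 137 distinct gene sequences. Of these, 94 occurred once on the autosomes and 43 occurred more than once, in 242 genes. Of the 43 repeated sequences, 30 had at least 1 copy in the thresholded list, and in 29 of the 30 other copies were not in it. Identical gene sequences therefore took different places in the lists. Genes with 1 autosomal copy were in the thresholded list in 12 of 94 cases (12.8%), those with 2 to 5 copies in 19 of 73 (26.0%), and those with more than 5 copies in 38 of 169 (22.5%).

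The most repeated sequence was a tRNA-Gly gene with 18 autosomal copies, of which 11 were in the pooled list and 1 in the thresholded list. Its copies ran from 34.0 at Y43D4A.t2 to 11.6 at C12C8.t1, which had 11.7 in replicate 1 and no region in replicate 2. A tRNA-Lys sequence with 15 copies had 12 in the pooled list and 7 in the thresholded list, the most of any sequence with at least 6 copies. The copies ran from 67.1 at B0350.t1 to 8.85 at C16C8.t1, which had 10.3 in replicate 1 and no region in replicate 2. The 13 copies of a tRNA-Asn sequence had 8 in the pooled list and 3 in the thresholded list. They ran from 62.6 at ZK507.t1 to 9.47 at R04F11.t1, which likewise had a region in replicate 1 (10.3) and none in replicate 2. Copies also differed in the share of words in the window that recur elsewhere in the genome, a measure defined below. Among tRNA-Asn copies without a pooled region it was 51.8% to 54.3% at F57G8.t1 to F57G8.t4, and 12.9% at T09F5.t1. The tRNA-Asn copies in the pooled list had 11.3% to 12.9%. T21B4.t1 is 1 of 9 autosomal copies of a tRNA-Ile sequence and the only one of them in the thresholded list. The lowest of the 6 copies in the pooled list had 8.20, and the other 3 copies had no pooled region.

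**Figure D3:**
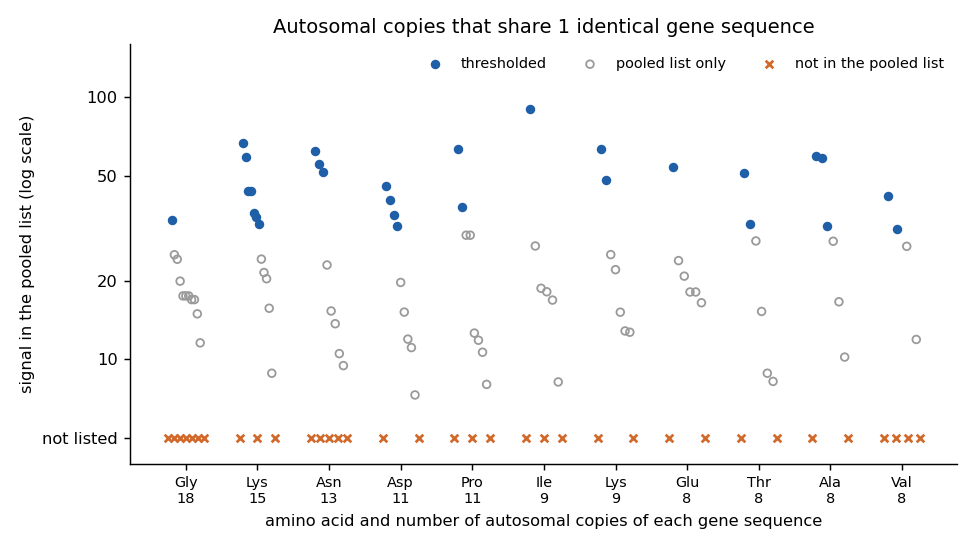
Signal in the pooled list (log scale) of the autosomal copies of each gene sequence with at least 8 identical copies; filled points are in the thresholded list, open points in the pooled list alone, and crosses, placed at an arbitrary height, have no pooled region. Each sequence has copies of all 3 kinds, and the tRNA-Ile sequence with 9 copies has 1 filled point at 90.5. Some crosses are copies whose window holds much repeated sequence, as given in the text.

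The tRNA-Trp copies were described further, because several are known by the amber suppressors they give when their anticodon is mutated, and they were named after their values were seen. The 6 autosomal copies of 1 sequence ran from 94.97 at sup-5 to 8.17 at Y4C6B.t2 among the 4 in the pooled list. The copy sup-24 had 21.3 in the pooled list, with 12.2 in replicate 1 and 8.23 in replicate 2. The copies sup-29 and rtw-6 had no pooled or replicate 1 region, and in replicate 2 they had 3.55 and 6.77. The sup-29 summit lay 249 bp downstream of the gene's first base, past its end, and the rtw-6 summit 35 bp upstream. The gene is identical in all 6 copies, while the 50 bases before it differ among sup-5, sup-24 and sup-29. The flanks of the other copies are not shown.
sup-5 (chrIII:8678569-8678618, minus strand): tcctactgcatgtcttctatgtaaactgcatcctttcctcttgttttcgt
sup-24 (chrIV:15289653-15289702, plus strand): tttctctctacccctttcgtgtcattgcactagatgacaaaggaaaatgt
sup-29 (chrIV:3681952-3682001, minus strand): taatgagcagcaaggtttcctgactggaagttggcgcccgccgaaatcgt
The flanks of sup-5 and sup-24 held the same base at 17 of 50 positions, those of sup-5 and sup-29 at 13, and those of sup-24 and sup-29 at 18. Whether the flanks bear on the signal was not tested.

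The 69 thresholded genes were served by 65 distinct summits, of which 61 lay in the window of 1 gene and 4 in those of 2 genes. At 2 of the 69 genes, T23F1.t1 and W09G10.t3, the summit lay inside a neighbouring tRNA gene. At single genes the summit lay a median of 24 bp downstream of the first base of the gene, with quartiles at -10 and 53 bp and a range from -40 to 114 bp. Of the 61 summits, 22 were upstream of the gene, all within 50 bp of it, 34 were inside and 5 were downstream. Over all 65, 36 (55.4%) were inside a tRNA gene. In the pooled list 87 of 217 distinct summits (40.1%) were inside, with a median of 34 bp at single genes and a range from -200 to 259 bp. The thresholded summits thus covered a narrower stretch around the gene than the pooled ones, and the pooled list includes them. Regions of fixed width, 340 bp for 64 of the 65, limit what can be said of position beyond the summit. The region of C37A2.t1, the gene of highest signal, was shorter. In the pooled list it ran from base 6781779 to base 6781863 of chromosome I, with the summit at 6781780, next to its edge.

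**Figure D4:**
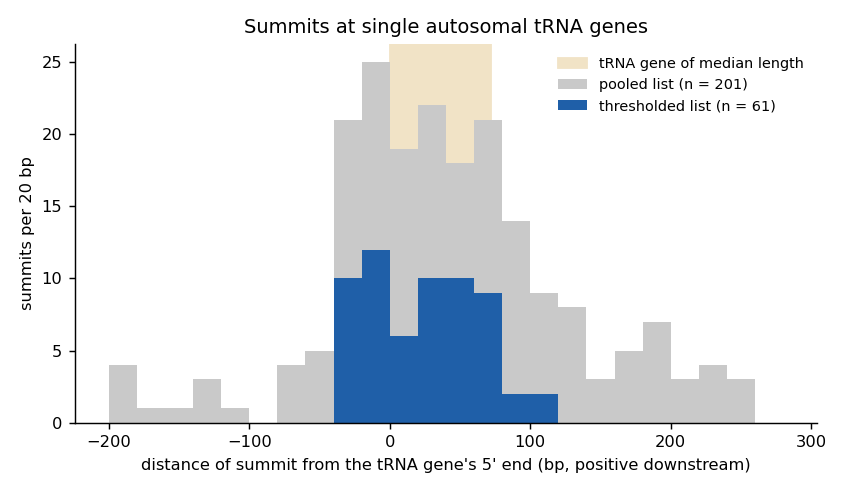
Distance (bp, positive downstream) of each distinct summit from the 5′ end of the tRNA gene, on the gene's strand, for the 61 thresholded and 201 pooled summits in the window of 1 gene, counted per 20 bp; the shaded stretch is a gene of median length, 72 bp. The thresholded summits all lie between -40 and 114 bp.

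Reads from repeated sequence may not be placed uniquely, and how they were treated is not given in the sources used here, so the share of 32-base words that occur elsewhere in the genome was taken as a measure of repetition. In 101 bp windows at the summits, a median of 34.3% of words recurred at the 65 tRNA peaks, of which 11 had none, while at the other 448 autosomal thresholded peaks the median was 0, with none in 396. The position of the summit moved with this measure. At 12 thresholded genes no word at the summit recurred, and none of these summits was inside the gene, with 8 upstream and 4 downstream. These counts are by gene. The summit shared by W10G11.t1 and W10G11.t2 counted as downstream of W10G11.t1 and as upstream of W10G11.t2. At 26 genes more than 50% of words recurred, and at 24 of them the summit was inside. At the others, T23F1.t1 and W09G10.t3, the summit lay inside a neighbouring tRNA gene. Distinct peaks above 50% numbered 24. The 31 genes in between had 12 summits inside. The words of the gene itself recur where the gene has copies, so the measure and the position are linked by construction, and their parts in the result were not tested.

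The median pooled signal was 43.1 at the 12 genes with no recurring word at the summit, 50.1 at the 31 in between and 44.0 at the 26 above 50%. The share at the summit was 0% at C37A2.t1 and 74.3% at sup-5, the genes of highest and next highest signal. Over all 336 genes, 251 had a gene sequence whose words all recur, and 61 of them (24.3%) were in the thresholded list. Of the 69 with some recurring words 8 (11.6%) were listed there, and of the 16 with none, 0, with 3 in the pooled list. Where more than 30% of the words in the whole window recurred, 2 of 28 genes (7.14%) were in the thresholded list, against 67 of 308 (21.8%) elsewhere.

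All 69 thresholded genes had a region in both replicate lists. So did 440 of the 448 other autosomal thresholded peaks, within 236 bp of the summit, so this was not particular to tRNA genes. At the 69 genes the replicate 1 signal ran from 16.1 to 106 with a median of 31.9. In replicate 2 it ran from 5.03 to 30.9 with a median of 13.1. Replicate 1 was higher at 68 of the 69 genes, with a median ratio of 2.10 and a range from 0.837 to 5.44. The replicate values were not scaled to each other, and over the other autosomal thresholded peaks the median ratio was 1.92, and over the 65 distinct tRNA peaks it was 2.17. Across the 69 genes Spearman's rho between replicates was 0.429, and across the 145 genes listed in both it was 0.612. Across the 76 of these outside the threshold it was 0.08. These correlations are across genes, which share the libraries and, in part, their sequence, and they are given as descriptions. The thresholded list rests on rank reproducibility between these same replicates, so values inside and outside it were shaped by that selection. Among the genes it also divided the pooled signal, with 31.3 the lowest inside and 30.2 the highest outside. The correlations inside and outside the threshold therefore cover different ranges of pooled signal. Among the 69 genes, 4 regions were counted at 2 genes each.

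The thresholded genes with the most unequal replicates were F42A10.t1, given above at 61.0 and 11.2, and C44B7.t1, a tRNA-Glu gene with 26.3 in replicate 1 and 5.03 in replicate 2. At the other end, K08E7.t1, a tRNA-Lys gene in an intron of pgp-1, had 16.1 in replicate 1 and 19.2 in replicate 2, and was the only thresholded gene with the higher value in replicate 2. W03C9.t1, a tRNA-Val gene, had 19.9 and 19.5. Summits of the replicates lay a median of 33 bp apart at the thresholded genes, within 50 bp at 45 of 69 (65.2%), and a median of 46 bp apart over all 145 genes. At F35H8.t1 the replicate 1 summit lay 18 bp inside the gene and the replicate 2 summit 26 bp upstream of it. At C37A2.t1 they lay 23 and 17 bp upstream. A summit's side of the gene's 5′ end could therefore differ between replicates of 1 gene.

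**Figure D5:**
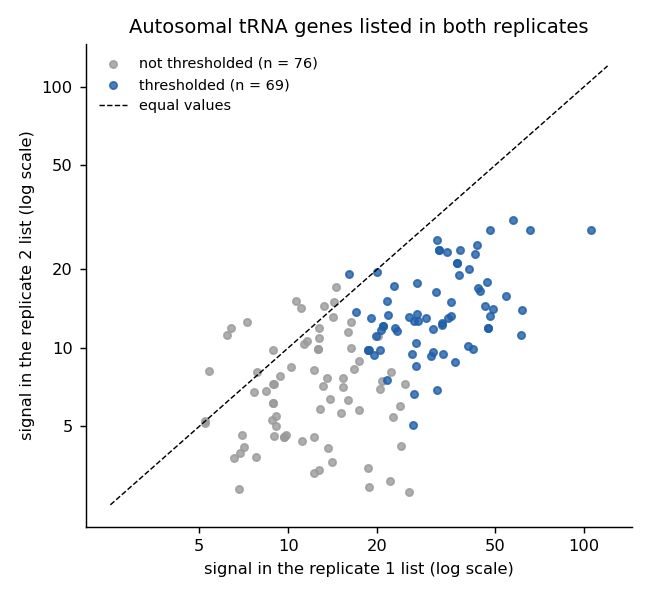
Signal in the replicate 1 list against the replicate 2 list (both log scales) for the 145 autosomal tRNA genes listed in both, with the 69 thresholded genes in blue, the 76 others in grey and a dashed line of equal values. Of the thresholded genes, 68 lie below the line.

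By rank within each replicate, the 663 highest nuclear regions of replicate 1, as many as the thresholded list holds, served 74 autosomal tRNA genes (22.0%), against 0.297% of windows. The 663 highest of replicate 2 served 45 (13.4%), against 0.289%. Both sets held 34 of the genes (10.1%), against 0.139% of windows and 38 of the 313 autosomal snoRNA genes (12.1%). The X-linked genes in the highest regions of replicate 2 numbered 59 of 276 (21.4%), and this difference from the autosomes was not tested.

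The thresholded genes were spread over all 5 autosomes, with 10 of 66 genes on chromosome I, 14 of 57 on II, 14 of 64 on III, 18 of 71 on IV and 13 of 78 on V. Of the genes in introns of protein-coding genes, 39 of 188 (20.7%) were in the thresholded list, and of those between genes 29 of 139 (20.9%). These shares lie close to the 20.5% of all autosomal tRNA genes. Of the intronic genes, 24 of 111 in the sense of their host and 15 of 77 antisense to it were listed. The 9 genes within exons overlapped no coding sequence, and 1 of them, W02G9.t2 (tRNA-Thr) in kel-8, was in the thresholded list, with the signal given above. Genes with another tRNA gene in their window gave 9 of 44 (20.5%), and those without gave 60 of 292 (20.5%).

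Promoter windows of protein-coding genes held fewer of the tRNA peaks than of the other peaks, a difference that was not tested. Of the 65 distinct tRNA peaks, 20 (30.8%) had their summit between 1000 bp upstream and 200 bp downstream of a protein-coding 5′ end, against 282 of the 448 other autosomal thresholded peaks (62.9%). The same windows held the midpoints of 89 of the 336 autosomal tRNA genes (26.5%) and 27.1% of autosomal bases. Genes within 1000 bp of such an end were in the thresholded list in 34 of 150 cases (22.7%), and those farther away in 35 of 186 (18.8%). In the pooled list the shares were 62.7% and 62.9%. None of the 65 peaks lay at an annotated snoRNA gene. The count for the other peaks is not given here, so no expected number stands beside it. The 65 peaks made up 12.7% of the 513 autosomal thresholded peaks.

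The internal promoter elements also encode conserved parts of the folded tRNA, the D arm and the T arm. The A box match was present on the gene's strand in 323 of the 336 genes and most often began at base 8, and the B box match was present in 319 and most often began at base 52. In 308 genes both were present with the A box first. Counted on either strand, 97.9% of the genes held the A box letters and 95.2% the B box letters, against 35.4% and 2.40% of 72 bp windows laid end to end on the autosomes. Both matches were present in 0.905% of those windows. A longer B box, GTTCGANNC with a G before it and a C after it, was present in 217 genes and in 0.105% of windows. It overlaps the shorter match by its letters.

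All 69 thresholded genes held the A box letters and 67 held the B box letters. The 13 genes without the A box letters had none in the thresholded list and 2 in the pooled list, and they include the selenocysteine gene. At the 20.5% share of all autosomal tRNA genes, a set of 13 would hold few thresholded genes. The median share of recurring words in the gene was 56.1% for these 13, against 100% for all 336. Genes with fewer recurring words were thresholded less often, as given above, and the part of each feature was not tested. The 17 genes without the B box letters had 2 in the thresholded list, T15B12.t1 and Y22D7AL.t3, both tRNA-Met genes with the same sequence, and the second shares its region with Y22D7AL.t4. A missing match says only that these letters are not in the gene. Of the 217 genes with the longer B box, 45 (20.7%) were in the thresholded list, close to the share of all autosomal tRNA genes. A run of TTTT within 20 bp after the gene was present at 329 genes. Of these, 68 (20.7%) were in the thresholded list, again close to the share of all autosomal tRNA genes. How often such runs occur elsewhere in the genome is not given here. Of the 17 tRNA genes with an intron, 3 (17.6%) were in the thresholded list.

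Genes that make or act with the RNA polymerase III machinery were looked up as well. Of 17 protein-coding genes for polymerase III subunits and factors, 0 had a thresholded summit in the promoter window, and of 10 genes for tRNA processing and export, 0 had one. Over all 19973 protein-coding genes the count was 498 (2.49%), so lists of this length would hold few such genes at that share.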

How the data were processed

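The 4 libraries were merged by the submitters into 2 biological replicates, with 1 control for both, per the notes deposited with the lists. The deposited files are lists of regions with the authors' signal value per region, on ce11, and values of different lists were not scaled to each other. The sources used here do not name the aligner, the peak caller, the threshold or the treatment of reads with several placements. The ce10 lists were not used here. Depth is unknown, so no intervals on signal values were computed. Members came from the Ensembl release 115 annotation of WBcel235, the assembly named ce11, with products from RefSeq for all 336 genes. A summit was taken as the region's start plus its offset. Words of 32 bases were counted on both strands of the whole genome. Computation used Python 3.11.15, pandas 2.3.3 and numpy 2.4.6, and the counting was tested on simulated regions. No hypothesis test was run, because there is 1 group and genes are not replicates. Named genes were the 12 of highest pooled signal, the highest of each amino acid, the highest and lowest copies of the 3 most repeated sequences and the 4 most unequal between replicates; the tRNA-Trp and tRNA-Met genes, the genes at the threshold, W02G9.t2, the division at 30% of recurring words and the further shown genes were chosen after values were seen. Members, lists and alternatives were chosen with earlier results of these data known.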

Additional observations from a re-analysis of the deposited data

How the results depend on the processing

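Of 50 alternative values, 32 stayed close to those reported and 18 moved. With no flank, 36 genes were in the thresholded list, 87 in the pooled list and 25 in both replicate lists, and 100% of summits were inside by construction. Flanks of 100 or 500 bp, any overlap in place of the summit, and genes with no other tRNA gene in the window moved no count by 1.5 times. Among the 56 genes with at least 50% of their words unique, 5 (8.93%), 27 (48.2%) and 15 (26.8%) were listed, in the same order. With 1 gene for each of 137 distinct sequences the counts were 23 (16.8%), 76 (55.5%) and 48. For the 186 genes over 1000 bp from protein-coding 5′ ends they were 35 (18.8%), 117 (62.9%) and 77 (41.4%). These last 3 settings have fewer genes. The 331 thresholded peaks of highest signal served 36 genes, with a median signal of 59.2. With the highest regions of a single replicate, the thresholded count ranged from 45 (without replicate 1) to 74 (without replicate 2), the median signal, on each list's own scale, from 16.42 to 31.28, the median summit distance from 1 to 35 bp and the share inside from 48.84% to 49.3%. No paired analysis was possible because all libraries belong to 1 group. The unknown depth limits the reading of genes absent from a list: absence shows only that no region was listed.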
